A study of Mus musculus with 44 samples.

Results

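Genes of 9 pancreatic digestive enzymes were followed through the small intestine, liver and brain of mice given vehicle or manganese (Mn). The 9 genes are Prss2, Ctrb1, Cela1, Cela2a, Cela3b, Cpa1, Cpb1, Pnlip and Cel, each of which matched 1 of the 55416 gene entries of the deposited count files. They were chosen as enzyme genes whose level in single small intestine libraries varied between the groups, so their values in small intestine by treatment are given as a description, with no test. The question put to them was whether their reads in the gut look like carried-over pancreas or like expression in the gut itself.

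RNA of total tissue homogenates was read with 3′ TagSeq, a method that reads the 3′ end of polyadenylated RNA, in 44 libraries from 15 C57BL/6J mice of about 2 months. The vehicle group held 7 animals (3 female, 4 male) with small intestine, liver and brain libraries. The Mn group received the tetrahydrate of manganese chloride daily at about 50 mg per kg of body weight and had 8 liver and 8 brain libraries (3 female, 5 male each) and 7 small intestine libraries (3 female, 4 male). The labels name no altered gene, and they do not give the segment of small intestine sampled or whether pancreas was trimmed away. Each animal gave 1 library per tissue and is named below by its number.

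Acinar cells fill most of the pancreas and make the enzymes that digest food. They store them as inactive or contained precursors in zymogen granules and release them through the duct into the duodenum, which lies against the pancreas. Prss2 encodes a trypsinogen and Ctrb1 a chymotrypsinogen, both precursors of proteases that cut within proteins. Cela1, Cela2a and Cela3b encode chymotrypsin-like elastases. Cpa1 and Cpb1 encode carboxypeptidases, which take residues off the end of a protein. Pnlip encodes the main pancreatic lipase and Cel the lipase that bile salts activate.

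Acinar genes are known to be driven by the transcription complex PTF1, which holds the proteins Ptf1a and Rbpjl and binds an E-box together with a nearby TC box. The promoters below, shown because most of these genes were high in the same library, are RefSeq windows of 300 bases (250 before and 50 after the start) on build GRCm38.p6, in the direction of the gene. All 9 genes matched a window. Capitals mark each CACCTG (an E-box) and each TTTCCC (a TC box), or their reverse complements CAGGTG and GGGAAA. These motifs were chosen with the promoters in view. The counts were made on GRCm39, so these coordinates are not those of the count files.
Cela1, chr15:100687871-100688170 (minus strand): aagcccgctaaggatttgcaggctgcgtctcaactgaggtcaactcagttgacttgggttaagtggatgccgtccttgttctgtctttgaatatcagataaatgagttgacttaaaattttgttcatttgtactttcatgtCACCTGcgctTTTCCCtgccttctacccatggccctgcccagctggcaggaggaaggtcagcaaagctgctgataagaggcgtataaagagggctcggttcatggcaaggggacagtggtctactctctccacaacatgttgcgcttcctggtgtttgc
Prss2, chr6:41521526-41521825 (plus strand): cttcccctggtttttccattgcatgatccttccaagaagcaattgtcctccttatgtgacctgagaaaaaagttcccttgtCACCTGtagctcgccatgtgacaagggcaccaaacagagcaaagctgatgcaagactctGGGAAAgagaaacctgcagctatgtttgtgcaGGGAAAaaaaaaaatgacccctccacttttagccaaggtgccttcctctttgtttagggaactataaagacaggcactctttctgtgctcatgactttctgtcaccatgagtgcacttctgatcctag
Cel, chr2:28563354-28563653 (minus strand): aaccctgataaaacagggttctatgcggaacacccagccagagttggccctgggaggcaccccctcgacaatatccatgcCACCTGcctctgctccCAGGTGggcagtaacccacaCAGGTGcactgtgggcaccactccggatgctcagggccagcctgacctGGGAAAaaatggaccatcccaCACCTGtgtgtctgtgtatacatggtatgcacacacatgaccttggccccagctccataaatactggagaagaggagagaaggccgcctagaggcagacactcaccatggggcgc
Pnlip, chr19:58670115-58670414 (plus strand): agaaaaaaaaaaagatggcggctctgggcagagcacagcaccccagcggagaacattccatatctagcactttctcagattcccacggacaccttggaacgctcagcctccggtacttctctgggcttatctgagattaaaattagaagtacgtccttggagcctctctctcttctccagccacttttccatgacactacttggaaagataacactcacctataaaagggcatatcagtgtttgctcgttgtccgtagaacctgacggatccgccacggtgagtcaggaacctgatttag

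In the Cela1 window the E-box and the TC box stand close together, at 109 and 99 bases before the start. The Prss2 window holds 1 E-box and 2 TC boxes, and the Cel window 4 E-boxes and 1 TC box. The Pnlip window holds neither. Of the 9 windows, 6 held an E-box, 6 a TC box and 4 (Prss2, Cela1, Cela2a and Cel) held both, while 20.2%, 25.3% and 4.86% of 32851 mouse promoters of the same length did. A match is a string of letters and does not show that a factor binds there.

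The libraries held 1796385 to 3798810 reads assigned to genes (2035736 to 3200867 in small intestine). Levels are in CPM (counts scaled to a common library size, with TMM within each tissue) and are not compared between genes here. Reads that map to several places were not counted (23.8% to 34.8% of records), so the values of the near-identical trypsin genes Prss2, Try4 and Try5 are uncertain. The small intestine libraries carried the markers of their tissue, with a summed level of 10 enterocyte genes of 15960 to 28210 CPM. Brain libraries of the Mn group differed from vehicle brain in hepatocyte and enterocyte markers, which bears on Cela1 below.

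Reads of the enzyme genes were concentrated in a single small intestine library, that of the vehicle male 2627. For the trypsinogen gene Prss2, the vehicle libraries held 28, 29, 29, 30, 35 and 36 reads and 2627 held 5035. The Mn libraries held 0, 0, 0, 3, 4, 6 and 35 reads of Prss2, with the highest in animal 2578. In CPM the vehicle values ran from 10.4 through a median of 12.5 to 1823, and the Mn values from 0 through 1.21 to 13.8. Thus 2627 stood apart from all libraries, and of the Mn libraries 2578 alone lay within the range of the other vehicle libraries.

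The chymotrypsinogen gene Ctrb1 had 24, 25, 29, 31, 32 and 38 reads in the other vehicle libraries and 5386 in 2627. In the Mn libraries it had 0, 0, 0, 5, 7, 16 and 28 reads. Again 2627 was far above the rest, and the Mn library 2578, with 28 reads, lay within the remaining vehicle libraries.

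The lipase genes were likewise far higher in 2627 than in any other library, though the order of the remaining libraries differed from gene to gene. Pnlip had 25, 25, 27, 27, 31 and 31 reads in vehicle and 4305 in 2627, against 0, 0, 0, 1, 5, 10 and 28 in Mn. Cel had 10, 12, 13, 13, 14 and 14 reads in vehicle and 2088 in 2627, against 0, 0, 1, 1, 1, 3 and 15 in Mn. For Cel the Mn library 2578 was above every vehicle library except 2627.

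The carboxypeptidase genes were also highest in 2627. Cpa1 had 15, 16, 16, 24, 26 and 26 reads in vehicle and 3525 in 2627, against 0, 0, 0, 4, 6, 7 and 21 in Mn. Cpb1 had 8, 9, 9, 10, 16 and 17 reads in vehicle and 2191 in 2627, against 0, 0, 0, 2, 5, 6 and 18 in Mn. In CPM the vehicle and Mn values of Cpb1 overlapped through Mn 2578 (7.10) and Mn 2602 (2.999), against 2.77 to 7.11 in the vehicle libraries other than 2627.

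The elastase genes divided 3 ways. Cela3b behaved like the genes above, with 6, 8, 13, 15, 16 and 17 reads in vehicle, 2805 in 2627 and 0, 0, 0, 1, 4, 4 and 17 in Mn. Cela1 was read in every small intestine library, with 67, 71, 94, 96, 105 and 106 reads in vehicle, 4409 in 2627 and 38, 42, 48, 50, 57, 60 and 117 in Mn. Cela2a was listed at 0 in all 44 libraries, 2627 included, and the reason was not tested.

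**Figure D1:**
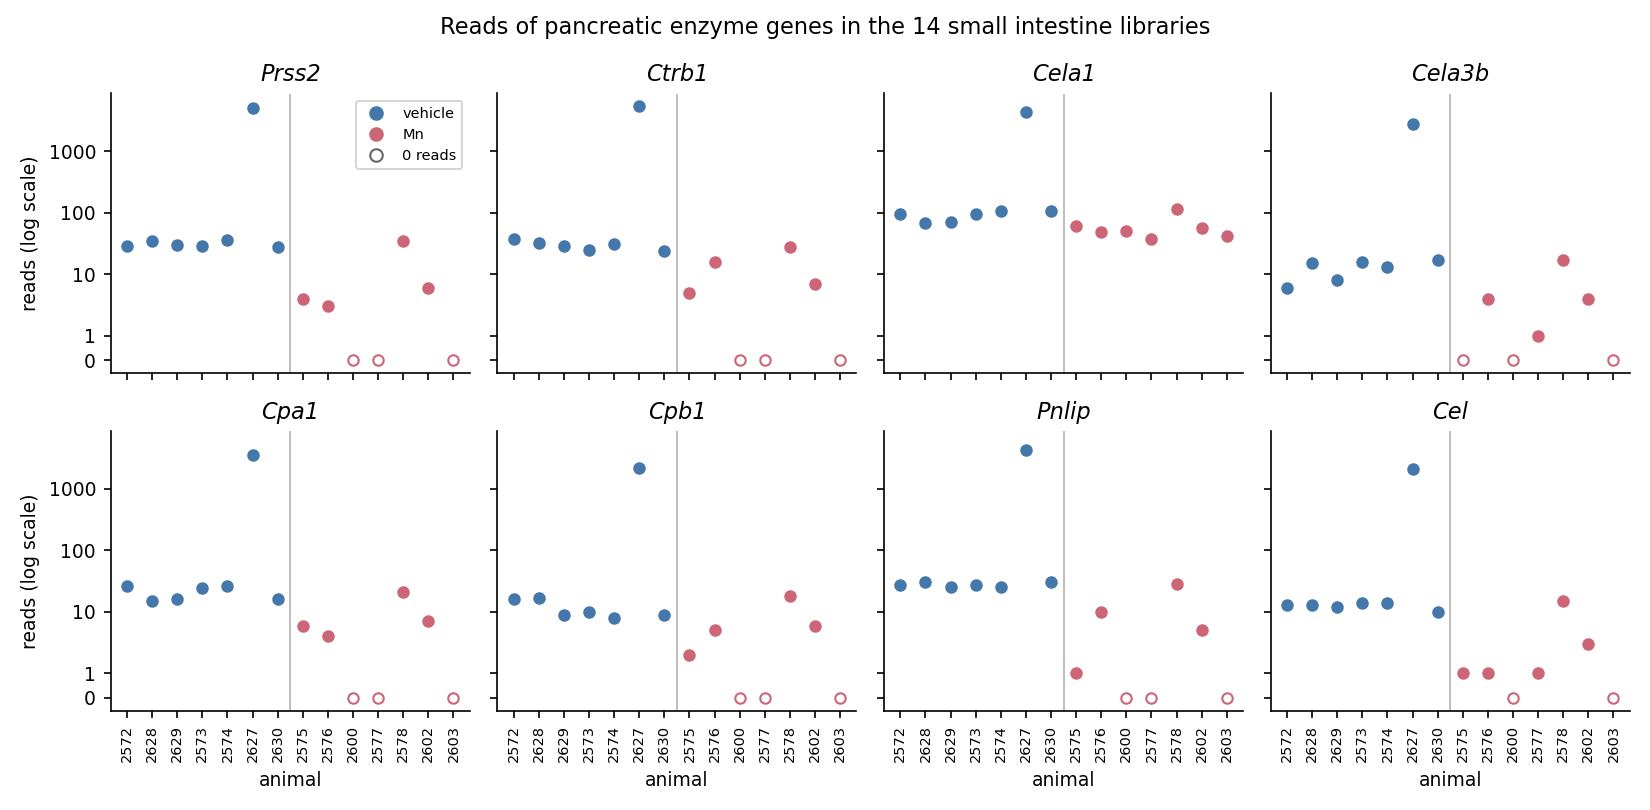
Reads of 8 of the enzyme genes (Cela2a, at 0 in every library, is not drawn) in each small intestine library, on a log axis with open circles for 0 reads. Animals stand in the order of the sample numbers in the file names, vehicle left and Mn right of the line. Vehicle 2627 is the high point in every panel, with 5386 reads of Ctrb1 and 2088 of Cel, and Cela1 is the only gene drawn with reads in every library.

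Because 2627 sets the vehicle group, its mean says little about the other animals. The mean of Prss2 was 271 ± 685 CPM in vehicle and 2.76 ± 4.99 CPM in Mn (SD, n = 7 and 7), and 12.1 ± 1.53 CPM in vehicle without 2627 (n = 6). The SD of log2 CPM of Prss2 over the vehicle libraries was 2.72, larger than that of 99.9% of the 11770 genes tested, and 0.17 without 2627. Over all members read, that SD ran from 2.11 (Cela1) to 2.95 (Cela3b), against a median of 0.22 for all genes.

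The log2 changes from vehicle to Mn, given with their standard errors (SE) as a description, were −6.45 ± 1.44 for Prss2, −6.13 ± 1.5 for Ctrb1, −6.29 ± 1.45 for Pnlip, −6.40 ± 1.5 for Cel, −6.21 ± 1.46 for Cpa1 and −2.77 ± 0.90 for Cela1. Cela2a, Cela3b and Cpb1 did not pass the low-count filter, so 6 of the 9 genes were fitted. Without 2627 the changes became −2.17 ± 0.56, −1.79 ± 0.53, −2.08 ± 0.56, −2.02 ± 0.54, −1.86 ± 0.51 and −0.55 ± 0.20. Most of the size of each change therefore came with 1 library. Without both 2627 and Mn 2578, a choice made after these values were seen, the change was −3.69 ± 0.43 for Prss2 and −0.75 ± 0.16 for Cela1. Within the animals numbered 2572 to 2578 the change of Prss2 was −1.37 ± 0.60, and within 2600 to 2630, where 2627 belongs, it was −9.43 ± 1.76. In this contrast edgeR's quasi-likelihood test called 54 of 11770 genes (0.459%) at a Benjamini-Hochberg adjusted p below 0.05, with 1439 genes at an unadjusted p below 0.05. It called 0 of the 6 enzyme genes, a count from which nothing is read, since the genes were chosen on these values.

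The 7 genes other than Cela1 and Cela2a were then added up in each library. Leaving out these 2 genes was a choice made with their values in view. Library 2627 held 25335 reads of the 7 genes, or 9608 CPM before scaling. The other vehicle small intestine libraries held 129 to 158 reads, or 0.509% to 0.624% of the count in 2627. Mn 2578 held 162 reads (0.639%), and the remaining Mn small intestine libraries held 0, 0, 2, 19, 38 and 43.

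Reads of the 7 genes were also found outside the gut. The Mn brain library of animal 2576 held 164 reads (0.647% of the count in 2627, exact Poisson interval 0.552% to 0.754%, which covers counting error only), a level like that of the vehicle small intestine libraries. The other 7 Mn brain libraries held 1 to 33 reads, the vehicle brain libraries 1 to 5, the vehicle liver libraries 0 to 35 and the Mn liver libraries 0 to 32. In all, 18 of 44 libraries held 10 or more reads of the 7 genes and 6 held none. For a library at 0, the limit of 3 reads that such a count allows is 0.0118% of the count in 2627, and the upper end of the two-sided Poisson interval is 0.0146%.

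The deposited file names carry a sample number, of a meaning that no source used here gives, and the counts were set in that order after they had been seen. Library 2627 of vehicle small intestine has number 6. The libraries with numbers 1 to 5, 7 and 8 held 129 to 164 reads of the 7 genes, and number 8 is the Mn brain library of 2576. Of the libraries whose numbers differ from 6 by multiples of 8, numbers 14, 22, 30 and 94 held 38, 35, 32 and 33 reads (0.126% to 0.150%) and came from Mn small intestine, vehicle liver, Mn liver and Mn brain. The remaining library of that kind, number 102 (vehicle brain 2627), held 1 read (0.00395%). The other 31 libraries held a median of 1 read, with 162 in number 13 (Mn small intestine 2578) and 0 to 43 in the rest. Among that rest, numbers 9, 10, 17, 18 and 26 held 19, 43, 25, 26 and 21 reads. Number 10 (Mn small intestine 2576) thus held more than any of 14, 22, 30 and 94, so raised counts were not limited to steps of 8 from 6. In small intestine, vehicle has the numbers 1 to 7 and Mn the numbers 9 to 15, so the treatment and the order of the numbers cannot be told apart there. What the number has to do with these reads was not tested.

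**Figure D2:**
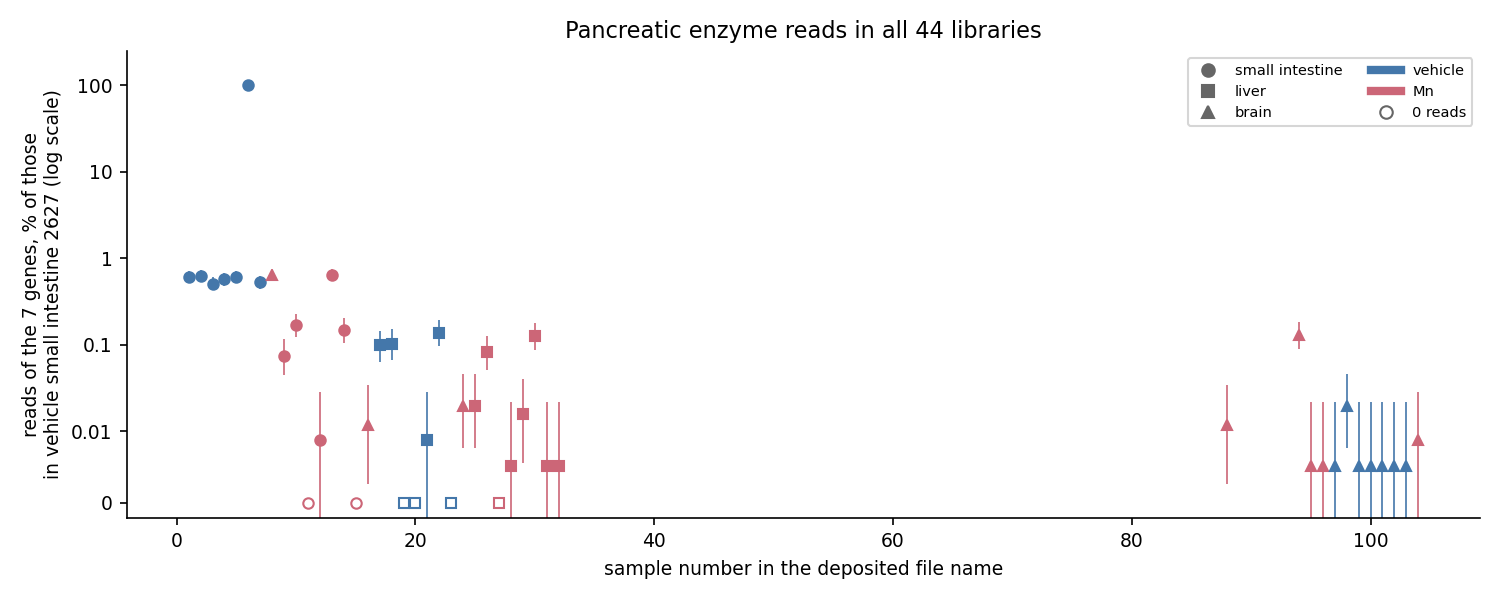
Summed reads of the 7 genes in each of the 44 libraries, as a percentage of the 25335 reads in vehicle small intestine 2627 (log axis, open symbols for 0 reads), against the sample number in the file name. Bars are 95% exact Poisson intervals. Libraries 1 to 8 other than 6 lie at 0.509% to 0.647%, whether from vehicle small intestine or, at number 8, from Mn brain, and 14, 22, 30 and 94 lie at 0.126% to 0.150%, while 102, also a multiple of 8 away from 6, lies at 0.00395%. Numbers 9, 10, 17, 18 and 26, which are not such a multiple away, lie at 0.075% to 0.170%.

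The make-up of these reads was compared between libraries. In 2627, Ctrb1 gave 21.3% of the reads of the 7 genes, Prss2 19.9%, Pnlip 17.0%, Cpa1 13.9%, Cela3b 11.1%, Cpb1 8.65% and Cel 8.24%. The 8 other libraries with 100 or more reads, a limit set after the counts were seen, held 129 to 164 reads each, so that every share carries a wide counting error. Of their 56 shares, 55 had an exact Clopper-Pearson interval that contained the share in 2627. The exception was Cela3b in vehicle small intestine 2572, with 3.87% (1.43% to 8.24%). In Mn brain 2576 the shares were close to those in the gut libraries, such as 12.2% for Cela3b (7.61% to 18.2%). At this depth no other difference in make-up was detectable.

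**Figure D3:**
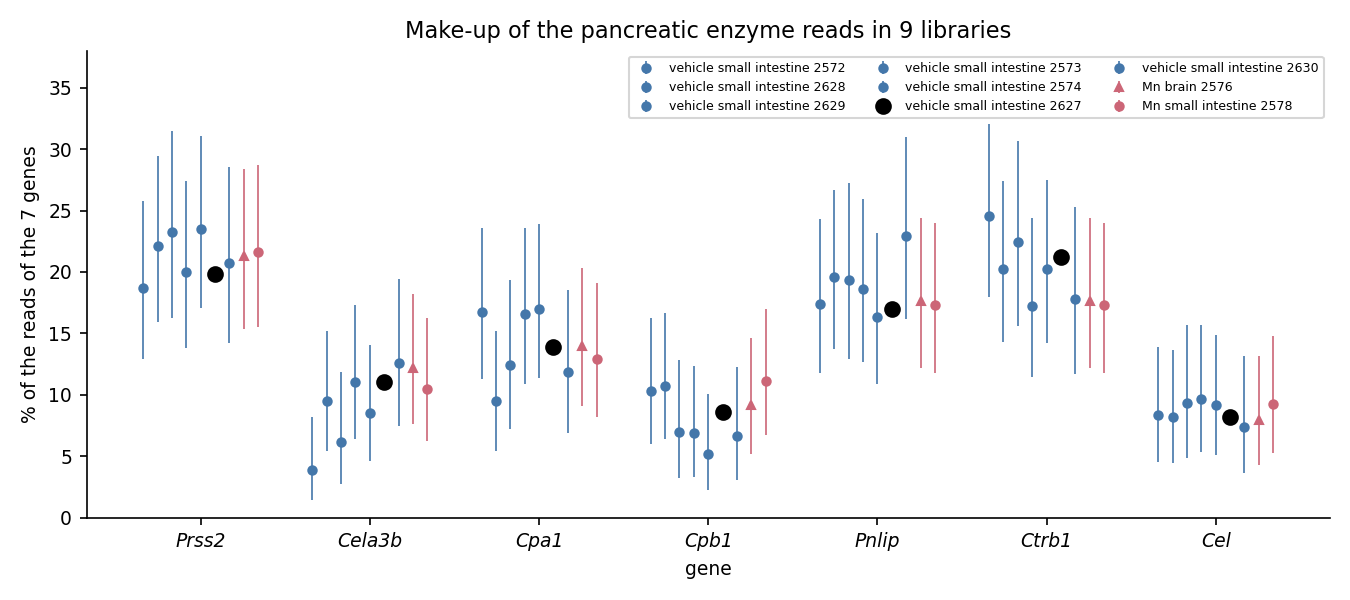
Share of each gene in the summed reads of the 7 genes, in percent, for vehicle small intestine 2627 (black) and the 8 other libraries with 100 or more such reads. Bars are 95% exact Clopper-Pearson intervals for counting error. The black point lies within the bars of the other libraries, such as 19.9% for Prss2, except for the lowest library of Cela3b.

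Cela1 differed from the other members in where it was read. In Mn small intestine 2600 and 2603, where all 7 genes were at 0, it had 50 and 42 reads, and in Mn 2577, where the 7 genes had 2 reads, it had 38. If Cela1 kept the ratio to the 7 genes found in 2627, it would leave 17.3 to 37.4 CPM above that ratio in the other vehicle small intestine libraries (before scaling) and 15.3 to 34.5 CPM in the Mn libraries. These ranges overlap, but the upper end in Mn was that of 2578 alone, and the other Mn libraries ran from 15.3 to 24.75 CPM. The medians were 25.95 CPM in vehicle without 2627 and 17.71 CPM in Mn. Liver libraries also held Cela1, with 98 to 184 reads in vehicle and 55 to 302 in Mn, while brain held 5 to 14 in vehicle and 6 to 47 in Mn.

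**Figure D4:**
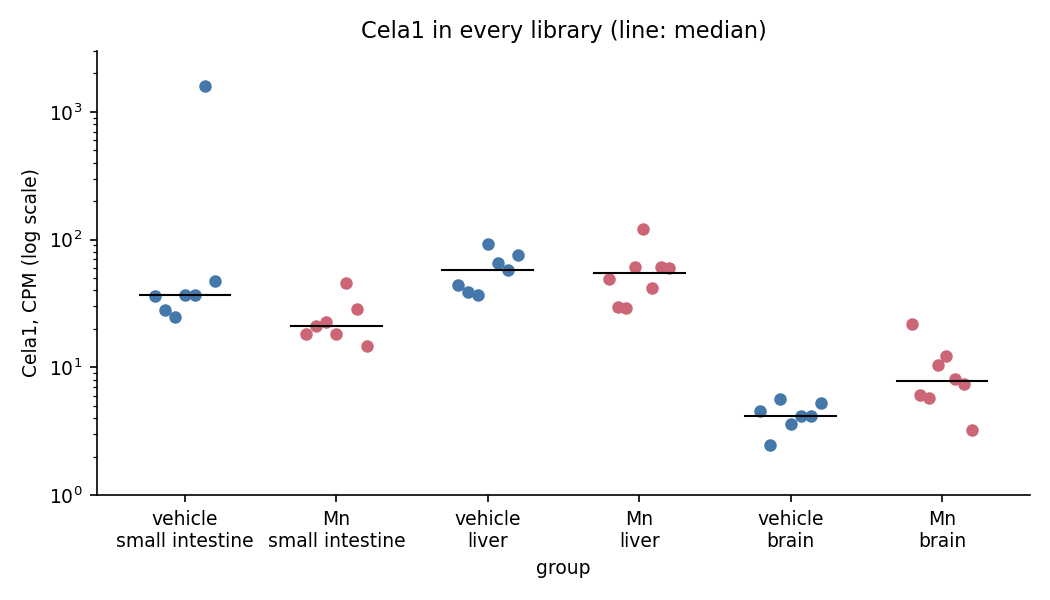
Cela1 in each library in CPM (log axis) by tissue and treatment, with a line at each group's median. Vehicle small intestine 2627 lies at 1597 CPM, the other gut libraries at 14.7 to 47.6 CPM, liver at 29.0 to 121 CPM and brain at 2.48 to 22.04 CPM.

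Ordered by median, with each tissue scaled on its own, Cela1 was highest in vehicle liver (57.8 CPM, range 37.1 to 92.0), then Mn liver (54.6, 29.0 to 121), vehicle small intestine (36.6, 24.7 to 1597), Mn small intestine (21.2, 14.7 to 46.1), Mn brain (7.78, 3.23 to 22.04) and vehicle brain (4.19, 2.48 to 5.68). Each neighbouring pair in this order overlapped. Mn small intestine and Mn brain did so through 1 library, that of Mn brain 2576.

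Cela1 was tested for Mn in the tissues that played no part in its choice, and was the only member there with enough reads to be fitted. In liver it had 58.9 ± 20.6 CPM in vehicle and 56.6 ± 29.2 CPM in Mn (SD, n = 7 and 8). The log2 change was −0.12 ± 0.18 (SE), edgeR adjusted p = 0.774, and the groups overlapped, against 123 of 10536 genes called in liver (1.17%, with 0.484% higher and 0.683% lower).

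In brain Cela1 had 4.28 ± 1.06 CPM in vehicle and 9.41 ± 5.82 CPM in Mn, and 7 of 8 Mn libraries lay above all vehicle libraries. Vehicle brain has the sample numbers 97 to 103, and the Mn library that was not above them, 2575, has 104. The 7 others have the numbers 8, 16, 24, 88, 94, 95 and 96, so in brain too the treatment goes largely with the number. The log2 change was 1.11 ± 0.34 with an edgeR adjusted p of 0.242 (0.0417 with no filter on low counts), against 74 of 12872 genes called in brain (0.575%, with 0.559% higher and 0.0155% lower). The summed hepatocyte markers ran from 35.1 to 566 CPM in vehicle brain and from 64.6 to 4993 CPM in Mn brain, with 6 of the 8 tested markers called higher. The summed enterocyte markers ran from 8.68 to 18.4 CPM and from 14.5 to 1098 CPM, with 3 of 5 called higher. The library of 2576, highest for Cela1 at 22.04 CPM, held the 1098 CPM. It also held 164 reads of the 7 enzyme genes. At the ratio found in 2627, these go with 28.5 of its 47 Cela1 reads. That leaves 8.66 CPM (before scaling), where vehicle brain had 2.035 to 5.565 CPM left and Mn brain 3.001 to 10.19 CPM. No hepatocyte or enterocyte marker was at 0 in all libraries of a group. The 7 Mn libraries above every vehicle brain in the hepatocyte or enterocyte sum were the same 7 that lay above it for Cela1. Without them the change was −0.42 ± 0.63, with the single library left (2575, at 3.23 CPM) assumed to vary like the vehicle ones. That refit removes every raised Cela1 value, so its outcome was set by the choice and nothing is read from it. The part of these markers, of the 7 enzyme genes or of the sample number in the Cela1 values was not tested.

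Small intestine was next set beside the other tissues of the same vehicle animals. These differences use the small intestine values on which the genes were chosen, and the genes passed the low-count filter through small intestine, so they are given as a description with no test. Prss2 stood 7.57 ± 1.79 (SE) above liver on the log2 scale, and 3.09 ± 0.46 above it without 2627. For Ctrb1, Pnlip, Cel and Cpa1 the log2 differences were 6.73 to 7.84 and, without 2627, 2.31 to 3.21. By edgeR 5 of the 6 members fitted were called higher and 37.4% of 11777 genes were (36.9% were called lower, 74.4% in all), and nothing is read from the members' count. Reads of these genes stood at a like level in the Mn brain library with sample number 8, and the part of the sample number in the difference was not tested.

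For Cela1 the direction against liver depended on 2627. With all libraries the log2 difference was 1.65 ± 0.90, and without 2627 it was −1.23 ± 0.22. The small intestine libraries other than 2627 ran from 25.4 to 48.2 CPM before scaling and the liver libraries from 39.3 to 88.0 CPM, so that the ranges overlapped. With the animal as a block and all libraries in, the difference was −0.57 ± 0.60. DESeq2 gave −1.08 ± 0.24 with all libraries entered, at default settings that can replace outlying counts in groups of this size. Whether the count of 2627 was replaced was not checked, so that value may not be one with 2627 in.

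Against brain the same limit holds, since the genes at or near 0 in brain entered the fit through small intestine. By edgeR all 6 members fitted were called higher and 44% of 13636 genes were (42.8% were called lower, 86.8% in all), and nothing is read from the members' count. Prss2, Cela3b, Ctrb1 and Cel had 0 reads in all 7 vehicle brain libraries, so that their folds are lower bounds against 3 reads over that group. Without 2627, Prss2 was at least 66.7-fold higher, Ctrb1 at least 63.9-fold, Cel at least 27.1-fold and Cela3b at least 26.8-fold. Cela1, read in every brain library, stood 6.26 ± 1.18 above brain on the log2 scale and 3.35 ± 0.19 above it without 2627.

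Between the sexes the small intestine values again turned on 2627, which is from a male, and they are given with no test for the same reason. Female against male, Prss2 was at −5.09 ± 1.46 on the log2 scale and Cela1 at −2.40 ± 0.95. Without 2627 the values were −0.55 ± 0.54 and −0.43 ± 0.20. By edgeR 0 of the 6 members and 18 of 11770 genes were called (0.153%, with 0.0425% higher and 0.11% lower, and 1042 at an unadjusted p below 0.05). For the difference of the Mn effect between the sexes, edgeR called 0 of 11770 genes (0%, with 324 at an unadjusted p below 0.05 and 0 called by DESeq2). Nothing is read from the members' counts.

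A list of 27 further acinar genes showed which of them set 2627 apart. Prss1, Ctrc and Cuzd1 were at 0 in all 44 libraries. In 21 of the other genes 2627 was above every other small intestine library, and in 13 by at least 10 times. The 13 leave out 2 genes that were at 0 in every other small intestine library, for which no ratio exists. The amylase genes Amy2a5 and Amy2b had only 5 and 28 reads in 2627, and 0 or 1 in the other small intestine libraries. Try4, another trypsinogen, had 3743 reads in 2627, 11 to 24 in the other vehicle libraries and 0 to 26 in Mn. Ctrl, a chymotrypsin-like protease, had 2773 reads in 2627, 13 to 31 in the other vehicle libraries and 1 to 12 in Mn. The PTF1 genes Ptf1a and Rbpjl had 3 and 7 reads in 2627 and 0 in the other vehicle small intestine libraries. Ptf1a was at 0 in every other library. Rbpjl also had 0 or 1 read in Mn small intestine, up to 4 in vehicle brain and up to 3 in Mn brain.

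A second set of these genes was also read where the 7 enzymes were at 0. In both Mn 2600 and Mn 2603, 8 of the 27 genes had 10 or more reads, a comparison made after the values were seen. Reg1, a secreted lectin-like protein, had 14440 and 15833 reads there and 16942 in 2627. Zg16, a zymogen granule protein that goblet cells also make, had 6286 and 8523 reads and 7000 in 2627. Spink1, a trypsin inhibitor, had 3482 and 4103 reads and 3550 in 2627. Reg1, Zg16 and Spink1 were the 3 genes of the list that were read and not highest in 2627.

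Colipase (Clps), the cofactor of pancreatic lipase, had 359 and 547 reads in Mn 2600 and 2603, 299 to 668 in the other vehicle libraries and 3627 in 2627. The ribonuclease gene Rnase1 had 76 and 65 reads in the same Mn libraries and 1995 in 2627. The kallikrein gene Klk1 had 203 and 318 reads and 912 in 2627. These genes were thus read in every gut library and were higher again in 2627. For Mn against vehicle, edgeR called 0 of the 12 genes of the list that were fitted, with a median log2 change of −0.81 beside −0.01 over all genes. The vehicle group of this fit includes 2627, and no median without it was computed for this list. The −0.81 is therefore not read as a change shared by the other animals.

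**Figure D5:**
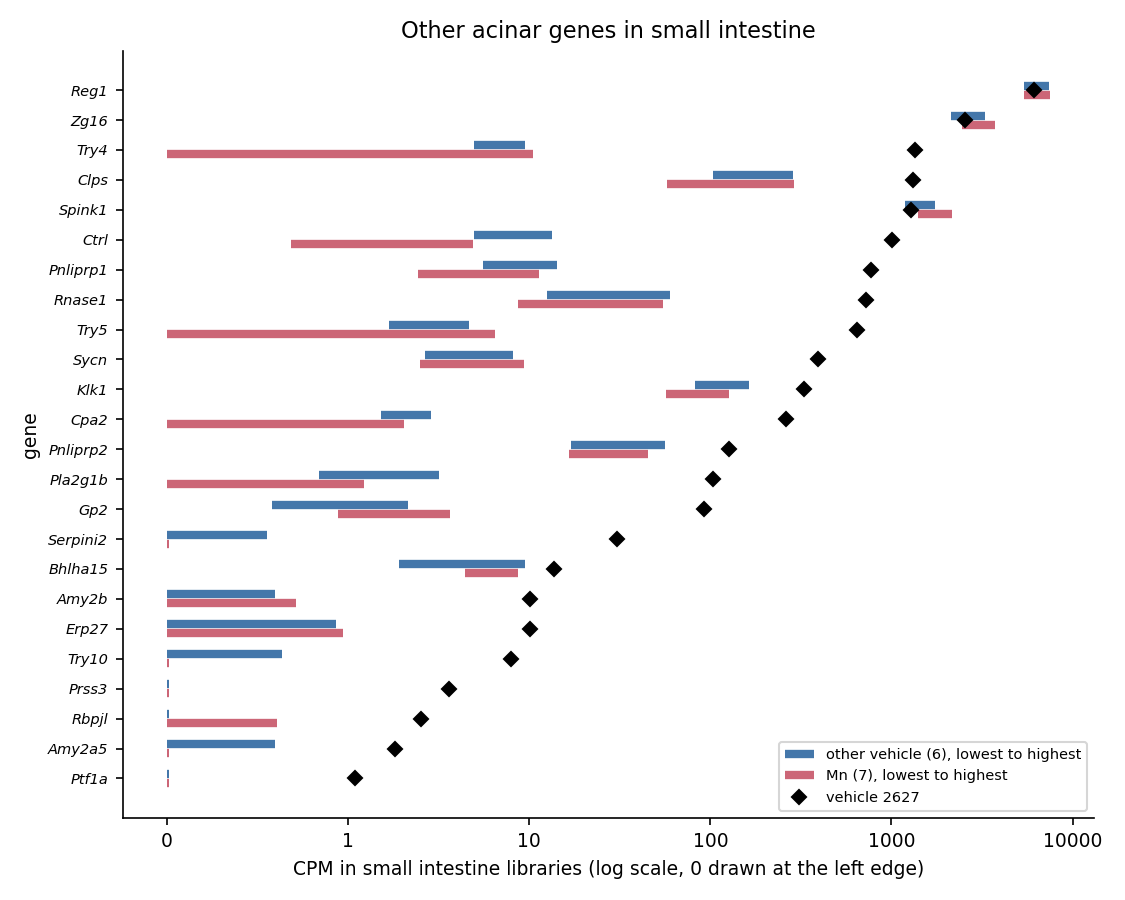
Levels of the 24 further acinar genes that were read, in CPM on a log axis with 0 at the left edge, in the small intestine. Diamonds are vehicle 2627, and bars span the lowest to the highest of the 6 other vehicle libraries (blue) and the 7 Mn libraries (red). The diamond is right of both bars in 21 genes and within or below them for Reg1, Zg16 and Spink1.

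Markers of other cells were set beside the enzyme reads in 2627. Among 12 islet endocrine genes, the insulin genes Ins1 and Ins2 and the genes Ppy, Nkx6-1 and G6pc2 were at 0 in 2627, and the list summed to 621 CPM there against 672 to 908 CPM in the other vehicle libraries and 854 to 1164 CPM in Mn. That sum rested on Slc2a2, Sst and Chga, which gut cells also express. Of the islet list, edgeR called Slc2a2, a glucose transporter, higher with Mn (541 ± 85.4 to 784 ± 138 CPM, log2 0.53 ± 0.12, adjusted p = 0.0399). The 8 pancreatic duct genes, led by Krt19, Car2 and Cftr, summed to 1237 CPM in 2627, 1345 to 1691 CPM in the other vehicle libraries and 1306 to 1616 CPM in Mn.

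The 10 adipose genes, led by Cidec, Fabp4 and Car3, summed to 369 CPM in 2627, 227 to 309 CPM in the other vehicle libraries and 221 to 298 CPM in Mn. Cfd, the fat cell protease adipsin, had 93 reads in 2627 (33.7 CPM), against 0.385 to 5.72 CPM in the other vehicle libraries. Adipoq, the fat cell hormone adiponectin, had 24 reads (8.69 CPM), against 0 to 1.39 CPM. Fabp4, Car3, Plin1, Retn and, on 1 read, Lep were also above the other vehicle libraries in 2627. Cidec, Plin4 and Adig were not, with Cidec at 182.5 CPM within 146.8 to 225.1 CPM. Part of the adipose list was thus high in the same library as the enzymes. The part of fat or other tissue in the enzyme reads was not tested. Fewer cells of a type and less RNA per cell cannot be told apart in such homogenates.

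The other lists gave no such separation of 2627 upward, except the lymphoid genes, led by Cd3e, Cd79a and Cd22, at 27.5 CPM against 12.2 to 23.8 CPM. The enterocyte genes, led by Apoa4, Fabp2 and Rbp2, were lowest in 2627 at 15960 CPM, next to 15990 to 22170 CPM in the other vehicle libraries. The proximal gut genes, led by Tff2, Slc40a1 and Onecut2, were at 2190 CPM in 2627 against 2018 to 5500 CPM, and the stomach genes, led by Gkn3, Pgc and Atp4a, at 84.7 against 46.9 to 1791 CPM. The distal gut genes, led by Slc51a, Slc51b and Pyy, were at 202 CPM against 214 to 394 CPM. Smooth muscle genes (Acta2, Myl9 and Myh11 leading) were at 1493 CPM against 1026 to 1766 CPM, and hepatocyte genes (Cps1, Alb and Ahsg leading) at 648 against 712 to 1478 CPM. In these lists and in the duct, adipose and lymphoid lists, edgeR called 0 genes for Mn in small intestine.

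Over the 14 small intestine libraries, the genes most like the mean log2 CPM of the members other than Cela1 were ranked by Pearson r among 11248 genes, as a description. Library 2627 weighs heavily in such an r, so r without it is given too. Try4 came first with r of 0.984 (0.951 without 2627), then Ctrl with 0.972 (0.933) and the lipase-related gene Pnliprp1 with 0.922 (0.808). Sycn, which encodes the zymogen granule protein syncollin, followed with 0.847 (0.405 without 2627). The next were Vrk2 (0.826), Zfyve1 (0.823), Fabp4 (0.82), Fyco1 (0.787), Rnf144a (0.774) and Gatm (0.774), whose reads in 2627, at 31 to 208, stood much nearer to the other libraries than those of the enzymes. Without 2627 these r were 0.281 for Gatm to 0.911 for Zfyve1.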

How the data were processed

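Per the labels' protocols, total RNA was made into 3′ TagSeq libraries and sequenced as single reads. The authors deposited unnormalized counts, whole numbers for each gene, made with FastQC 0.12.0, STAR 2.7.10b and HTSeq 0.2.0 on GRCm39, per the submitters' processing notes, which also name R 4.2.2 and DESeq2 1.12.3. No source used here says whether molecular identifiers were used. Summary entries and 92 spike-in entries were left out. Symbols were matched by gene ID (52083 of 55416). Of the marker genes listed, Muc6 and Cblif matched no entry.

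Groups came from the labels. Counts were fitted with edgeR 4.0.16 in R 4.3.3 (quasi-likelihood, TMM, filterByExpr with minimum count 10 and minimum total 15), with sex as a covariate for Mn, treatment for sex and none between tissues. Adjusted p-values are Benjamini-Hochberg over all genes fitted, with a threshold of 0.05, and two-sided. SE is the size of the log2 change over the square root of F. DESeq2 1.42.0, no filter, no sex covariate, left-out libraries, animal ranges, library sizes without acinar genes or without TMM, and the animal as a replicate block were tried. The fits were tested on simulated data. Likeness used log2(CPM + 0.5), leaving out Cela1, whose lowest small intestine library exceeds 10 CPM. Motifs and intervals were computed in Python 3.11.15 with scipy 1.17.1 and pandas 2.3.3.

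The 9 genes, the lists (further acinar, islet endocrine, pancreatic duct, adipose, stomach, proximal and distal gut, enterocyte, smooth muscle, hepatocyte, lymphoid) and the tests were chosen with earlier results of these data known. The text names all 9 genes, the 8 further acinar genes with the highest mean CPM in small intestine and the 10 genes most alike. Of each other list it names the 3 highest and any gene called for Mn in small intestine. Listed genes called only in other comparisons are not named. Others (Ptf1a, Rbpjl, Amy2a5, Amy2b, the adipose genes other than Cidec, Fabp4 and Car3, the genes at 0) were named after their values were seen. Tissues of 1 animal share its number in the labels: deviations from group means correlated at 0.165 to 0.416 between small intestine and liver and −0.056 to 0.205 between small intestine and brain (7 animals). Duplicate libraries were not found, the lowest chi-square per gene within a group being 1.47.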

Additional observations from a re-analysis of the deposited data

Results flagged for a closer look

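Among 44 sets of values (a gene in a group of 7 or 8 libraries), 27 held a library whose gap to its nearest neighbour was large for the group's range. The limit was meant to flag about 1 in 20 groups by chance, but that rate cannot be used here. The genes were chosen on their small intestine values, and they share libraries, so the flags are not independent. A group with reads in only 1 library is flagged however few they are, as was Cpa1 in vehicle brain with 1 read. The flags are therefore given as a description, with no test. All values are CPM.

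In vehicle small intestine, 2627 stood apart for 8 genes, at 1823 for Prss2, 1950 for Ctrb1, 1559 for Pnlip, 756 for Cel, 1277 for Cpa1, 794 for Cpb1, 1016 for Cela3b and 1597 for Cela1. In Mn small intestine, 2578 stood apart for 6 genes, at 13.8 for Prss2, 11.04 for Pnlip, 5.92 for Cel, 8.28 for Cpa1, 7.10 for Cpb1 and 6.70 for Cela3b. In Mn brain, 2576 stood apart for 7 genes, at 16.4 for Prss2, 13.6 for Ctrb1, 13.6 for Pnlip, 6.10 for Cel, 10.8 for Cpa1, 7.04 for Cpb1 and 9.38 for Cela3b.

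Cela1 in Mn liver 2578 was at 121, where the median was 54.6. The remaining flags rest on 1 to 5 reads. They were Cela3b in Mn liver 2602 at 2.13, Cpb1 in Mn liver 2602 at 1.28 and in vehicle liver 2627 at 1.27, Cpa1 in vehicle brain 2572 at 0.419 and Cpb1 in vehicle brain 2628 at 1.99.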

How the results depend on the processing

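For Mn against vehicle in small intestine, the count of genes called was 54, and 143 with DESeq2, 521 with no filter, 8 in animals 2572 to 2578 alone, 147 in animals 2600 to 2630 alone, 23 without vehicle 2627 and Mn 2578, and 12 to 120 with a single library left out (34 without 2627). In liver it was 123, and 365 with DESeq2, 519 with no filter, 19 with no sex covariate and 35 to 371 with a library left out. In brain it was 74, and 119 with DESeq2, 542 with no filter, 2 without the 7 Mn libraries and 30 to 124 with a library left out. Between the sexes it was 18, and 36 with DESeq2, 371 with no filter and 11 to 28 with a library left out. For the sex by treatment term it was 0, and 43 with no filter and 0 in every fit with a library left out. Apart from where fewer libraries were fitted by construction, the cause was not tested. With the replicate block, 8966 genes were called against liver (8758 without) and 11751 against brain (11839 without), and no call of a member changed.

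Signs turned in these cases. Cela1 in small intestine against liver went from 1.65 to −1.08 with DESeq2, where the count of 2627 may have been replaced as an outlier. It went to −0.57 with the replicate block and to −1.23 without 2627 (range over left-out libraries −1.23 to 1.86). Cela1 in brain went from 1.11 to −0.42 without the 7 Mn libraries, a turn set by the choice, since these 7 held every raised Cela1 value. With no filter its edgeR adjusted p became 0.0417. For female against male, without 2627 and Mn 2578, Prss2 went to 0.0011 (from −5.09), Pnlip to 0.11 and Ctrb1 to 0.50, and Ctrb1, at 0.04337 without 2627 alone, ranged from −5.15 to that value over left-out libraries. For sex by treatment the lowest and highest over left-out libraries were −2.22 and 5.30 for Prss2, −0.98 and 5.78 for Cpa1, −1.23 and 6.15 for Pnlip, −0.73 and 6.66 for Ctrb1 and −2.75 and 4.26 for Cel, each lowest without 2627. With no filter edgeR called all 6 members for sex and 5 for sex by treatment, and the cause was not tested.

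The log2 changes of the members for Mn in small intestine kept their sign in all 132 refits and moved by more than the spread between replicates in 23 of them. That spread was taken with 2627 included, which widens it, so the 23 says little about stability. For Prss2 the vehicle SD was 2.72 with 2627 and 0.17 without, and a move from −6.45 to −5.60 with DESeq2 was not counted. Low counts limit the values outside 2627, where none of the 7 genes had more than 38 reads in a library.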

Other observations

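Other small intestine libraries stood apart for genes of gastric and duodenal glands, chosen here after their values were seen. Gkn3, a gastrokine, was at 1703 and 1275 CPM in vehicle 2628 and 2630 and at 703 CPM in Mn 2603, and at 25.6 to 91.7 CPM in the other 11 libraries. Tff2, a trefoil peptide of mucous gland cells, was at 3598, 2759 and 1812 CPM in the same libraries and at 10.5 to 213 CPM in the others. Pgc, which encodes the pepsinogen progastricsin, was at 84.5, 53.5 and 34.0 CPM, against 1.58 to 7.97 CPM. Library 2627 was not among them, with 76.8 CPM of Gkn3, 213 CPM of Tff2 and 7.97 CPM of Pgc.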
